A study of Mus musculus with 8 samples.

Results

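Transcript levels of 81 genes were compared over 4 groups of E13 mouse gonad samples: 17 genes of glycolysis and its entry and exit steps, and 64 genes of respiratory chain complexes I to IV. The members were picked by gene symbol alone among the 34945 array probe sets that the annotation pairs with a single symbol, and 175 of these probe sets matched. The choice of these gene sets was made with earlier results of these data known. A probe set is a group of short oligonucleotides that reads one transcript. Each gene was represented by its brightest probe set on average over the 8 arrays, as for all 18193 genes of the table. The rule lists 19 glycolysis symbols, and Gpi1 and Eno1 matched none of the single-symbol probe sets. The respiratory chain set holds 35 genes of complex I, 4 of complex II, 8 of complex III and 17 of complex IV, grouped by their symbols.

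The groups were sorted XY Sertoli cells, sorted XX pre-granulosa cells, whole XY testes and whole XX ovaries, with 2 arrays each. All came from embryonic day 13 mice of the strain C57BL6/J-Tg92, so every group, gonads included, carried the Tg92 background. The sorted cells were EGFP-positive, about 22000 cells per Sertoli sample and 30000 per pre-granulosa sample, and each testis or ovary sample pooled 4 gonads. The labels do not give the promoter that drives EGFP, nor if the replicates were taken from different litters or sorts, so p-values measure only the spread between these samples, which may be technical.

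Glycolysis breaks glucose down to pyruvate in the cytosol and yields a small amount of ATP, and lactate dehydrogenase then turns pyruvate into lactate. The respiratory chain, in the inner mitochondrial membrane, passes electrons from NADH and succinate through complexes I to IV to oxygen. Pyruvate dehydrogenase joins both pathways, and its kinase Pdk1 slows it. In the postnatal testis, Sertoli cells are known for a high rate of glycolysis and for exporting lactate that germ cells take up and oxidise.

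Values are log2 levels as the authors deposited them, and a difference of 1 is a doubling. A gene is called higher or lower where limma, a linear model fitted over all 8 arrays and all 45037 probe sets, gave a Benjamini-Hochberg adjusted p of 0.01 or less, and every adjusted p below comes from that model. The number of arrays limits the precision, and the model has 4 residual degrees of freedom. The group labels held against their markers: the 7 Sertoli markers averaged 10.76 and 10.92 in Sertoli cells, against 6.24 and 6.89 in pre-granulosa cells, and the 7 pre-granulosa markers averaged 5.92 and 5.74 in Sertoli cells, against 10.44 and 9.97 in pre-granulosa cells. Of 9 germ cell markers, 6 lay at or under background in the sorted groups, where background is 4.78, the highest level of Y-linked probe sets in XX arrays. The 4 Leydig cell markers averaged 8.23 and 9.39 in Sertoli cells, against 6.92 and 6.47 in pre-granulosa cells and the 7 macrophage markers 6.02 and 7.58 in Sertoli cells, against 4.73 and 4.47 in pre-granulosa cells; their part in differences between the sorted cells was not tested. The 3′ minus 5′ signal of the Gapdh control probe sets, which grows as RNA breaks or copying stops short, was 3.68 on the first pre-granulosa array and 1.24 on the second, against 1.94 and 2.69 in Sertoli cells. The members' replicate SD was largest in pre-granulosa cells, at 0.478, against 0.306 in Sertoli cells, 0.118 in testis and 0.202 in ovary.

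The gene sets were first read as wholes. Each gene was centred on its mean over the 8 arrays, and the median over a set was taken on each array. The glycolysis median was 0.22 and 0.02 in Sertoli cells, against 0.08 and -0.39 in pre-granulosa cells, and 0.02 and 0.05 in testis, against 0.24 and 0.20 in ovary. The respiratory chain median was -0.22 and -0.19 in Sertoli cells, against -0.14 and -0.45 in pre-granulosa cells, and 0.17 and 0.20 in testis, against 0.23 and 0.34 in ovary. All 4 sorted-cell arrays thus lay below all 4 gonad arrays for the respiratory chain, while the glycolysis medians of the groups were interleaved. The median over all genes split in the same way. It was -0.19 and -0.12 in Sertoli cells and -0.14 and -0.24 in pre-granulosa cells. In the gonads it was 0.13 and 0.16 in testis and 0.19 and 0.22 in ovary. The part of this shift in the respiratory chain split was not tested.

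A constant added to an array moves both medians alike, so their gap, glycolysis minus respiratory chain, does not depend on such a constant. Changes between arrays that vary with signal level do not cancel. The gap was 0.44 and 0.21 in Sertoli cells, against 0.22 and 0.06 in pre-granulosa cells, and -0.16 and -0.15 in testis, against 0.01 and -0.14 in ovary. Every sorted-cell array had a gap above every gonad array. The mean gap of Sertoli cells, 0.33 ± 0.16 (SD, n = 2), exceeded that of testis, -0.15 ± 0.00, by 0.48, and that of pre-granulosa cells, 0.14 ± 0.11, exceeded that of ovary, -0.06 ± 0.10, by 0.20. Between Sertoli and pre-granulosa cells the gap differed by 0.19 and the arrays overlapped by 0.01. Without the first Sertoli array, and with the gap recomputed on the arrays left, the difference was 0.01. Testis minus ovary was -0.09. The gap is a description over chosen genes and was not tested.

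**Figure D1:**
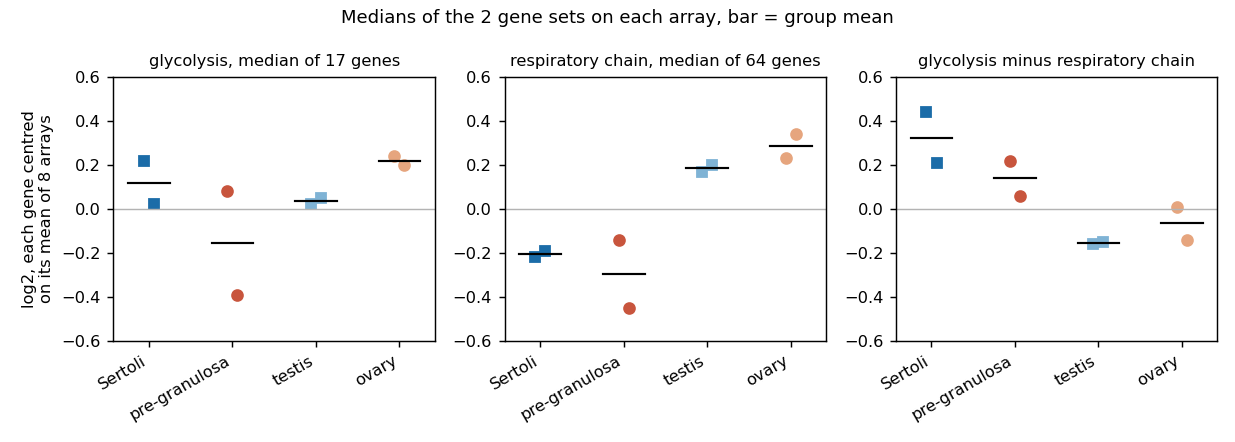
Median of the 17 glycolysis genes, median of the 64 respiratory chain genes, and their gap (log2, each gene centred on its mean of 8 arrays) on both arrays of each group, with bars at the group means. The respiratory chain medians of the sorted cells lie between -0.45 and -0.14, below the gonads at 0.17 to 0.34, and the gaps of the sorted cells lie at 0.06 or more, above the gonads at 0.01 or less. The medians over all genes, not drawn, split likewise, at -0.24 to -0.12 in the sorted cells and 0.13 to 0.22 in the gonads.

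In Sertoli against pre-granulosa cells, 0 of 17 glycolysis genes and 1 of 64 respiratory chain genes, Cox6b2, were called, where 2.67% of all 18193 genes were called, 1.62% higher and 1.05% lower. The glycolysis genes had a median difference of 0.46, with 12 of 17 above 0 (70.6%), and the respiratory chain genes a median of 0.13, with 41 of 64 above 0 (64.1%), beside a median of 0.04 and 55.0% above 0 over all genes. Both Sertoli arrays exceeded both pre-granulosa arrays for 10 of 17 glycolysis genes (58.8%) and 11 of 64 respiratory chain genes (17.2%), against 24.2% of all genes. Both lay below for 4 of 17 glycolysis genes (23.5%) and 6 of 64 respiratory chain genes (9.38%), against 19.1% of all genes. At an unadjusted p under 0.05, 9 glycolysis genes lay above 0 (52.9%) and 2 below (11.8%), and 7 respiratory chain genes above (10.9%) and 4 below (6.25%), beside 12.6% and 9.80% of all genes.

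Glucose enters through facilitative transporters. Slc2a1, the widely used glucose transporter GLUT1, had 12.29 and 12.23 in Sertoli cells, against 11.96 and 11.87 in pre-granulosa cells, a difference of 0.35 ± 0.14 (SE), and 12.19 and 12.17 in testis, against 12.24 and 12.40 in ovary. On this probe set the Sertoli arrays were above the pre-granulosa arrays, and the testis arrays below the ovary arrays, by little in both cases. Another Slc2a1 probe set had 12.01 and 11.87 in testis, against 11.62 and 12.10 in ovary. A further one had 11.41 and 11.32 in testis, against 10.95 and 11.53 in ovary. The Sertoli arrays were above the pre-granulosa arrays on both, but the gonad arrays overlapped. Slc2a3, the high-affinity transporter GLUT3, read 7.80 and 8.93 in Sertoli cells, against 6.33 and 8.75 in pre-granulosa cells, and its sorted-cell replicates differed by more than the group means did. Another of its probe sets followed the same order at 7.31 and 8.39 in Sertoli cells, against 6.01 and 8.14 in pre-granulosa cells, and 2 more lay below background.

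Hexokinases trap glucose by phosphorylation. Hk1, the form that is constitutive in many tissues, had 8.83 and 9.02 in Sertoli cells, against 7.86 and 7.19 in pre-granulosa cells. It had 6.70 and 7.14 in testis, against 7.36 and 7.04 in ovary. Both Sertoli arrays stood above all other 6 arrays. The difference from pre-granulosa cells was 1.39 ± 0.28, 2.63-fold, with a limma adjusted p of 0.0452, which misses the threshold. The other Hk1 probe set lay between 3.67 and 4.88, at or close to background, and gives no second reading. Hk2, the insulin- and hypoxia-responsive form, had 9.65 and 9.24 in Sertoli cells, against 8.34 and 9.03 in pre-granulosa cells, with a narrow margin between them.

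Phosphofructokinase, the main control step, has muscle, liver and platelet subunits that did not follow one direction. Pfkp, the platelet subunit, had 7.77 and 7.98 in Sertoli cells, against 6.76 and 5.71 in pre-granulosa cells, a difference of 1.64 ± 0.34 with a limma adjusted p of 0.0485. Without the first pre-granulosa array it was 2.17, and without the second it was 1.11. Each of these fits leaves a single pre-granulosa array, so the spread in that group is not measured. Pfkm, the muscle subunit, had 8.56 and 8.15 in Sertoli cells, against 9.38 and 9.14 in pre-granulosa cells, and the difference of -0.91 ± 0.24 had an adjusted p of 0.0920. Pfkl, the liver subunit, had 8.35 and 8.67 in Sertoli cells, against 9.0 on both pre-granulosa arrays. On the chosen probe sets the groups of arrays were apart for all 3 subunits, with Pfkp on the Sertoli side and Pfkm and Pfkl on the pre-granulosa side. The other Pfkl probe sets overlapped, at 7.83 and 7.81 in Sertoli cells, against 8.57 and 7.60 in pre-granulosa cells, and 6.59 and 7.15, against 7.55 and 6.82. Another Pfkp probe set overlapped too, at 5.67 and 5.78, against 5.70 and 5.62. A further one, close to background, had 4.67 and 4.95, against 4.56 and 4.22.

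Aldolase splits the hexose into trioses. Aldoa, the broadly expressed form, had 12.69 and 12.73 in Sertoli cells, against 12.44 and 12.08 in pre-granulosa cells. Aldoc, the form best known from brain, had 5.50 and 6.32 in Sertoli cells, against 7.23 and 6.93 in pre-granulosa cells, a difference of -1.17 ± 0.28 with a limma adjusted p of 0.0736. It also had 5.90 and 5.91 in testis, against 6.82 and 6.81 in ovary, an XX side in both comparisons, neither of which passed the test. Eno2, the neuronal enolase, had 7.23 and 5.71 in Sertoli cells, against 7.82 and 7.29 in pre-granulosa cells, with a wide gap between the Sertoli replicates.

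The remaining steps were carried by abundant transcripts. Pgk1, phosphoglycerate kinase on the X chromosome, had 12.49 and 12.23 in Sertoli cells, against 12.05 and 11.74 in pre-granulosa cells. Pgam1, phosphoglycerate mutase, had 12.24 and 12.15 in Sertoli cells, against 11.51 and 11.70 in pre-granulosa cells, 0.59 ± 0.14 with a limma adjusted p of 0.0762. Pkm, pyruvate kinase, had 11.56 and 11.38 in Sertoli cells, against 11.25 and 10.37 in pre-granulosa cells. These enzymes lay above the pre-granulosa arrays in Sertoli cells without passing the test, whereas Tpi1, triose phosphate isomerase, had 10.55 and 10.33 in Sertoli cells, inside the pre-granulosa values of 10.99 and 10.30.

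At the exit, Ldhb, the lactate dehydrogenase subunit that favours lactate oxidation, had 13.16 and 13.10 in Sertoli cells, against 12.72 and 12.28 in pre-granulosa cells, 0.64 ± 0.18 with a limma adjusted p of 0.122. Ldha, the subunit that favours lactate formation, averaged 10.85 ± 0.21 in Sertoli cells, against 10.56 ± 0.40 in pre-granulosa cells (SD, n = 2 each), and the arrays overlapped. Pdk1, which inhibits pyruvate dehydrogenase, had 9.46 and 9.58 in Sertoli cells, against 7.68 and 9.12 in pre-granulosa cells. Its difference of 1.12 ± 0.43 had a limma adjusted p of 0.236. It was 1.83 without the second pre-granulosa array and 0.40 without the first. The pre-granulosa replicates of Pdk1, Slc2a3 and Pfkp were the farthest apart among the glycolysis genes, and the part of the unequal 3′ to 5′ signal of those arrays in this was not tested.

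**Figure D2:**
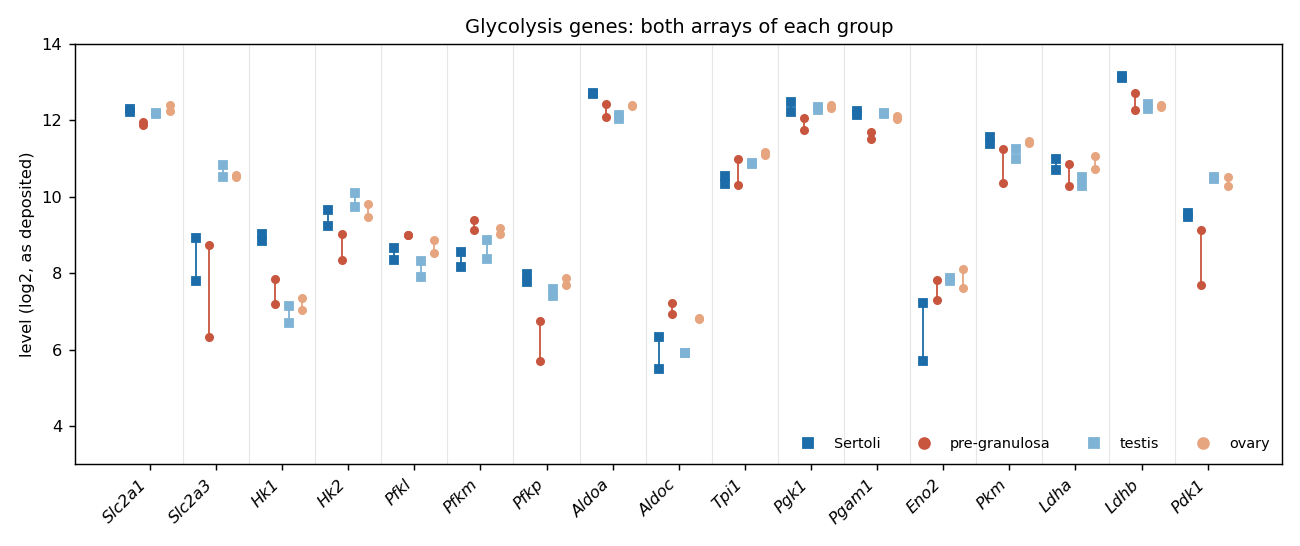
Log2 level of the 17 glycolysis genes on both arrays of Sertoli cells, pre-granulosa cells, testis and ovary, from left to right within each gene, with a line joining the replicates. Hk1 is highest in Sertoli cells, at 8.83 and 9.02, the Slc2a3 and Pdk1 points of both gonads lie above those of the sorted cells, and the widest replicate line is that of Slc2a3 in pre-granulosa cells, 6.33 to 8.75.

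Cox6b2 was the respiratory chain gene called between Sertoli and pre-granulosa cells. It encodes an isoform of a small complex IV subunit that in adult mammals is known from testis. It had 8.30 and 8.53 in Sertoli cells, against 10.16 and 10.02 in pre-granulosa cells, and 8.97 and 8.91 in testis, against 9.76 and 9.88 in ovary. All 4 XY arrays lay below all 4 XX arrays. Sertoli cells were lower by 3.20-fold (log2 difference -1.68 ± 0.15, limma adjusted p = 0.00392). Testis minus ovary was -0.88 ± 0.15 with an adjusted p of 0.0916, so the gonad difference did not pass. With any 1 Sertoli, testis or ovary array left out, the adjusted p was between 0.0148 and 0.0217 and the difference between -1.80 and -1.56. Its widely used counterpart Cox6b1 had 12.10 and 12.09 in Sertoli cells, inside the pre-granulosa values of 12.53 and 11.63.

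The other 16 complex IV genes straddled 0 in this comparison, with a median of 0.04, beside 0.15 for complex I, 0.21 for complex II and 0.21 for complex III. The most positive differences were Ndufa1, a small X-linked complex I subunit, at 1.02 ± 0.29 with 8.94 and 9.70 in Sertoli cells, against 8.09 and 8.52 in pre-granulosa cells, and Uqcrfs1, the Rieske iron-sulfur protein of complex III, at 1.01 ± 0.32 with means of 10.03 ± 0.13 in Sertoli cells, against 9.01 ± 0.69 in pre-granulosa cells (SD, n = 2 each). Ndufa13, an accessory complex I subunit, followed at 0.74 ± 0.26. On the negative side after Cox6b2 were Cox7a2l, known for its part in supercomplex assembly, at -0.79 ± 0.30, and the complex I subunit Ndufa7 at -0.64 ± 0.16. None of these 5 passed the test, with limma adjusted p between 0.0809 and 0.226, although both arrays of one group lay above both of the other for each. Without the second pre-granulosa array the Uqcrfs1 difference was 1.5, and without the first it was 0.52.

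A core subunit of each complex gives the scale of the rest. Ndufs1, the largest iron-sulfur subunit of complex I, had 9.15 and 9.25 in Sertoli cells, within the pre-granulosa values of 8.44 and 9.37. Sdha, the flavoprotein of complex II, had 11.08 and 11.53 in Sertoli cells, within 11.83 and 10.44 in pre-granulosa cells. Uqcrc1, a core protein of complex III, had 9.32 and 9.54 in Sertoli cells, against 9.36 and 9.07 in pre-granulosa cells. Cox5a, a structural complex IV subunit, had 10.73 and 11.01 in Sertoli cells, just above 10.62 and 10.32 in pre-granulosa cells. In 3 of these 4 the groups overlapped.

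**Figure D3:**
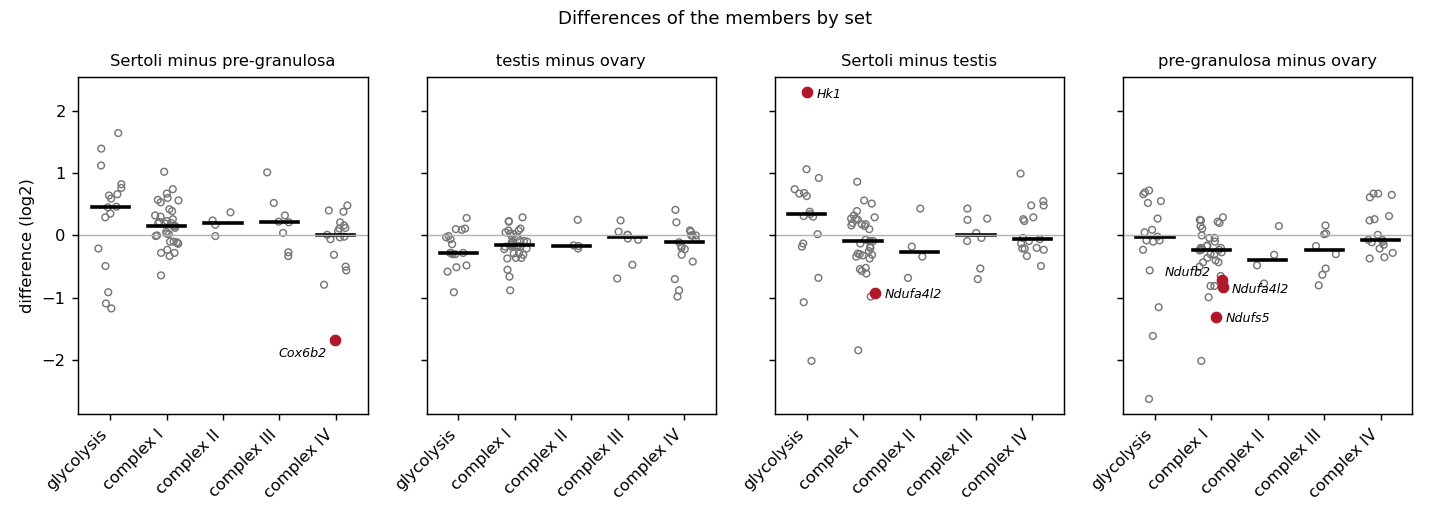
Log2 differences of all 81 genes by set in 4 comparisons, with black bars at the set medians and filled points for called genes; differences of sorted cells minus gonads are given less the median of all genes. Only 6 points are called: Cox6b2 in Sertoli minus pre-granulosa, Hk1 and Ndufa4l2 in Sertoli minus testis, and Ndufs5, Ndufa4l2 and Ndufb2 in pre-granulosa minus ovary.

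In testis against ovary, 0 of 17 glycolysis and 0 of 64 respiratory chain genes were called by limma, where 0.352% of all genes were. At an unadjusted p under 0.05, 0 glycolysis genes lay above 0 and 2 below (11.8%), and 0 respiratory chain genes above and 4 below (6.25%), beside 5.38% above and 6.11% below over all genes. The glycolysis median was -0.28, with 4 of 17 above 0 (23.5%), and the respiratory chain median was -0.12, with 19 of 64 above 0 (29.7%), beside a median of -0.04 and 44.2% above 0 over all genes. Both testis arrays lay below both ovary arrays for 9 of 17 glycolysis genes (52.9%) and 29 of 64 respiratory chain genes (45.3%), against 30.7% of all genes. Both testis arrays lay above both ovary arrays for 1 of 17 glycolysis genes (5.88%) and 9 of 64 respiratory chain genes (14.1%), against 24.4% of all genes. The lowest differences were those of the respiratory gene Cox7c at -0.98 ± 0.49, Aldoc at -0.91 ± 0.28, Cox6b2, and Ndufv1, the NADH-binding subunit of complex I, at -0.88 ± 0.55. Cox7c had 8.01 and 8.38 in testis, against 8.41 and 9.94 in ovary, with a wide gap between the ovary replicates.

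Pfkm, at 8.38 and 8.87 in testis against 9.02 and 9.19 in ovary, and Pfkl, at 7.91 and 8.33 in testis against 8.88 and 8.52 in ovary, lay on the XX side here too. Pfkp had 7.40 and 7.59 in testis, against 7.87 and 7.69 in ovary. Hk2 had 10.10 and 9.73 in testis, against 9.48 and 9.80 in ovary, and Pgam1 had 12.20 and 12.16 in testis, against 12.12 and 12.03 in ovary. Pgam1 was the 1 glycolysis gene with both testis arrays above both ovary arrays, by a difference of 0.10 ± 0.14. On the respiratory side the most positive were Cox6a1, a complex IV subunit, at 0.41 ± 0.25, Ndufa4 at 0.29 ± 0.43 and Sdhc, a membrane anchor of complex II, at 0.25 ± 0.17. Limma adjusted p for these 3 ran between 0.758 and 0.966.

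The difference between Sertoli minus pre-granulosa and testis minus ovary was itself tested, and 0 of the 81 members passed, as did 0 of all genes (0% of 18193). At an unadjusted p under 0.05, 5 glycolysis genes lay above 0 (29.4%) and 0 below, and 4 respiratory chain genes above (6.25%) and 1 below (1.56%), beside 7.68% and 5.33% of all genes. The glycolysis median of this contrast was 0.53, with 14 of 17 above 0 (82.4%). The respiratory chain median was 0.27, with 49 of 64 above 0 (76.6%). Over all genes the median was 0.08, with 58.3% above 0. The smallest limma adjusted p among members was 0.0874, for Ndufs5 at 1.22 ± 0.20.

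The sorted cells were also set against the gonads that hold them. The ranked values of the 4 sorted-cell arrays and of the 4 gonad arrays form separate sets whose medians differ by 0.38, so differences here are given less the median of all genes, which was -0.29 for Sertoli minus testis and -0.40 for pre-granulosa minus ovary, while the p-value tests the difference as deposited. These comparisons share the sorted-cell and gonad arrays with the 2 above and are not independent of them. In such bulk samples, fewer cells of a type and less RNA per cell cannot be told apart. Germ cell markers averaged 4.23 and 4.41 in Sertoli cells, against 8.59 and 8.49 in testis, and 4.50 and 4.37 in pre-granulosa cells, against 8.79 and 8.74 in ovary. The 7 erythroid markers averaged 6.49 and 6.87 in Sertoli cells, against 8.81 and 9.30 in testis, and 6.54 and 6.06 in pre-granulosa cells, against 9.05 and 9.04 in ovary. The 8 endothelial markers averaged 6.23 and 6.50 in Sertoli cells, against 7.57 and 7.92 in testis, and 5.22 and 5.81 in pre-granulosa cells, against 7.87 and 7.84 in ovary. The interstitial markers averaged 6.81 and 6.97 in Sertoli cells, against 10.46 and 10.37 in testis, and 5.51 and 6.71 in pre-granulosa cells, against 9.52 and 9.75 in ovary. The Leydig cell markers averaged 11.37 and 11.11 in testis, above the Sertoli values, and 6.68 and 6.74 in ovary, within the pre-granulosa values. The macrophage markers averaged 6.32 and 6.51 in testis, within the Sertoli values of 6.02 and 7.58. In ovary they averaged 6.73 and 7.05, above the pre-granulosa values of 4.73 and 4.47. The part of these cells in the differences below was not tested.

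In Sertoli cells against testis, 1 of 17 glycolysis genes, Hk1, was called higher, where 0.989% of all genes were called higher, and 1 of 64 respiratory chain genes, Ndufa4l2, was called lower, where 8.71% of all genes were. The glycolysis median was 0.34 above that of all genes, with 12 of 17 above 0, and the respiratory chain median was -0.09, with 27 of 64 above 0. With each array centred on its own median, calls over all genes split into 450 higher (2.47%) and 800 lower (4.40%) in place of 180 and 1585, and the members called were Hk1, Aldoa and Ldhb, all higher, and 0 respiratory chain genes. After that centring both Sertoli arrays exceeded both testis arrays for 10 of 17 glycolysis genes (58.8%) and 23 of 64 respiratory chain genes (35.9%), beside 42.0% of all genes. Both lay below for 3 of 17 glycolysis genes (17.6%) and 18 of 64 respiratory chain genes (28.1%), beside 32.5% of all genes.

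Hk1 stood at 8.83 and 9.02 in Sertoli cells, against 6.70 and 7.14 in testis. It was higher by 4.90-fold relative to the median gene (log2 2.29 ± 0.28, limma adjusted p = 0.00590). With any 1 Sertoli, testis or ovary array left out, the adjusted p was between 0.0154 and 0.0516, and over all alternatives it lay between 0.00283 and 0.0516. Ldhb had 13.16 and 13.10 in Sertoli cells, against 12.30 and 12.43 in testis, 1.06 ± 0.18 relative to the median gene with an adjusted p of 0.0294. For 2 other Ldhb probe sets the difference was called, at 1.30 and 1.34 with adjusted p of 0.00876 and 0.00798, so the Ldhb reading depended on the probe set. Aldoa had 12.69 and 12.73 in Sertoli cells, against 12.14 and 12.04 in testis, 0.92 ± 0.16 with an adjusted p of 0.0394. For these 3 genes every Sertoli array was above every testis array.

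Slc2a3 and Pdk1 ran the other way. Slc2a3 had 7.80 and 8.93 in Sertoli cells, against 10.82 and 10.51 in testis, and 6.33 and 8.75 in pre-granulosa cells, against 10.58 and 10.52 in ovary. Its difference was -2.01 ± 0.77 for Sertoli minus testis and -2.62 ± 0.77 for pre-granulosa minus ovary, the lowest of the glycolysis genes in both, with limma adjusted p of 0.0780 and 0.0364. Without the second pre-granulosa array the pre-granulosa minus ovary difference, with the median of all genes kept, was -4.22, and without the first it was -1.81. Pdk1 had 9.46 and 9.58 in Sertoli cells, against 10.46 and 10.53 in testis, and 7.68 and 9.12 in pre-granulosa cells, against 10.28 and 10.53 in ovary. On these chosen probe sets no sorted-cell array reached a gonad array for either gene. Another Pdk1 probe set had 8.30 and 7.23 in Sertoli cells, against 7.48 and 7.15 in testis, and 6.33 and 8.47 in pre-granulosa cells, against 7.21 and 6.78 in ovary, so it did not share this order.

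In pre-granulosa cells against ovary, 0 of 17 glycolysis genes were called by limma, and 3 of 64 respiratory chain genes, Ndufs5, Ndufa4l2 and Ndufb2, were called lower, where 9.62% of all genes were called, 9.12% lower and 0.506% higher. At an unadjusted p under 0.05, 0 glycolysis genes lay above 0 and 7 below (41.2%) in the values as deposited, and 0 respiratory chain genes above and 37 below (57.8%), beside 5.18% above and 37.8% below over all genes. The glycolysis median was -0.02 relative to all genes, with 8 of 17 above 0, and the respiratory chain median -0.20, with 19 of 64 above 0. With each array centred on its own median, 5.40% of all genes were called, 235 higher (1.29%) and 747 lower (4.11%) in place of 92 and 1659, and Ndufs5 was the 1 member called. After that centring both pre-granulosa arrays lay below both ovary arrays for 4 of 17 glycolysis genes (23.5%) and 23 of 64 respiratory chain genes (35.9%), beside 32.8% of all genes. Both lay above for 6 of 17 glycolysis genes (35.3%) and 7 of 64 respiratory chain genes (10.9%), beside 31.9% of all genes. Pfkp, at 6.76 and 5.71 in pre-granulosa cells against 7.87 and 7.69 in ovary, differed by -1.15 ± 0.34, with an adjusted p of 0.0230. With the median of all genes kept, it was -2.07 without the first pre-granulosa array and -1.01 without the second.

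Ndufs5, an accessory subunit on the membrane arm of complex I, had 8.47 and 8.33 in pre-granulosa cells, against 10.08 and 10.10 in ovary. It had 9.02 and 9.12 in Sertoli cells and 9.46 and 9.63 in testis, so in the deposited values its groups were ordered pre-granulosa, Sertoli, testis, ovary with no overlap between neighbours. With each array centred on its median, Sertoli minus testis was -0.08 ± 0.14 with a limma adjusted p of 0.704. The step from Sertoli cells to testis thus did not hold after centring. Pre-granulosa cells were lower by 2.46-fold relative to the median gene (log2 -1.30 ± 0.14, limma adjusted p = 0.00168). Without the first or the second ovary array its adjusted p was 0.0162 or 0.0170, and over all alternatives it was between 9.73e-04 and 0.0250. Sertoli minus pre-granulosa was 0.67 ± 0.14 and testis minus ovary -0.55 ± 0.14, opposite in sign, with adjusted p of 0.0535 and 0.251.

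Ndufa4l2, a paralogue of Ndufa4 known as a hypoxia-inducible gene, had 5.30 and 5.18 in Sertoli cells, against 6.45 on both testis arrays, and 5.30 and 5.44 in pre-granulosa cells, against 6.44 and 6.75 in ovary. The sorted cells read little above background. It was lower in Sertoli cells than in testis (-0.92 ± 0.16, limma adjusted p = 0.00510) and lower in pre-granulosa cells than in ovary (-0.83 ± 0.16, adjusted p = 0.00531). With each array centred on its median these adjusted p were 0.0178 and 0.0176, and with any 1 Sertoli, testis or ovary array left out both missed the threshold, the highest at 0.0493. Without the first pre-granulosa array the pre-granulosa minus ovary call was also lost, with an adjusted p of 0.0144. Ndufb2, an accessory complex I subunit, had 9.17 and 8.78 in pre-granulosa cells, against 10.02 and 10.13 in ovary, and was lower (-0.71 ± 0.18, limma adjusted p = 0.00926). Over all alternatives its adjusted p ran from 0.00771 to 0.668. A second Ndufb2 probe set read 8.65 and 8.44 in pre-granulosa cells, against 9.33 and 9.49 in ovary, and another read 7.83 and 8.99 in pre-granulosa cells, against 8.38 and 7.72 in ovary, with no such order.

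Ndufa4, placed with complex I by its symbol and since known as a complex IV subunit, had the most negative difference of the respiratory genes in both comparisons. It had 7.35 and 8.20 in Sertoli cells, against 9.95 and 9.88 in testis, and 6.65 and 7.78 in pre-granulosa cells, against 9.46 and 9.78 in ovary. The differences were -1.84 ± 0.43 and -2.01 ± 0.43, with limma adjusted p of 0.0177 and 0.0125. Ndufa8, a complex I subunit, stood at -0.98 ± 0.28 for Sertoli minus testis and -0.99 ± 0.28 for pre-granulosa minus ovary. At the positive end for Sertoli minus testis were Cox7c at 0.99 ± 0.49, Ndufa5 at 0.86 ± 0.22 and Ndufv2 at 0.56 ± 0.19, and for pre-granulosa minus ovary Cox7c at 0.67 ± 0.49, Cox6b2 at 0.67 ± 0.15 and Cox6c at 0.65 ± 0.15. None of these passed the test. With either pre-granulosa array left out, the Sertoli minus testis differences of the members were unchanged, since that comparison uses none of those arrays. Calls in these fits moved only with the spread that the model estimates over all groups, for members and all genes alike.

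**Figure D4:**
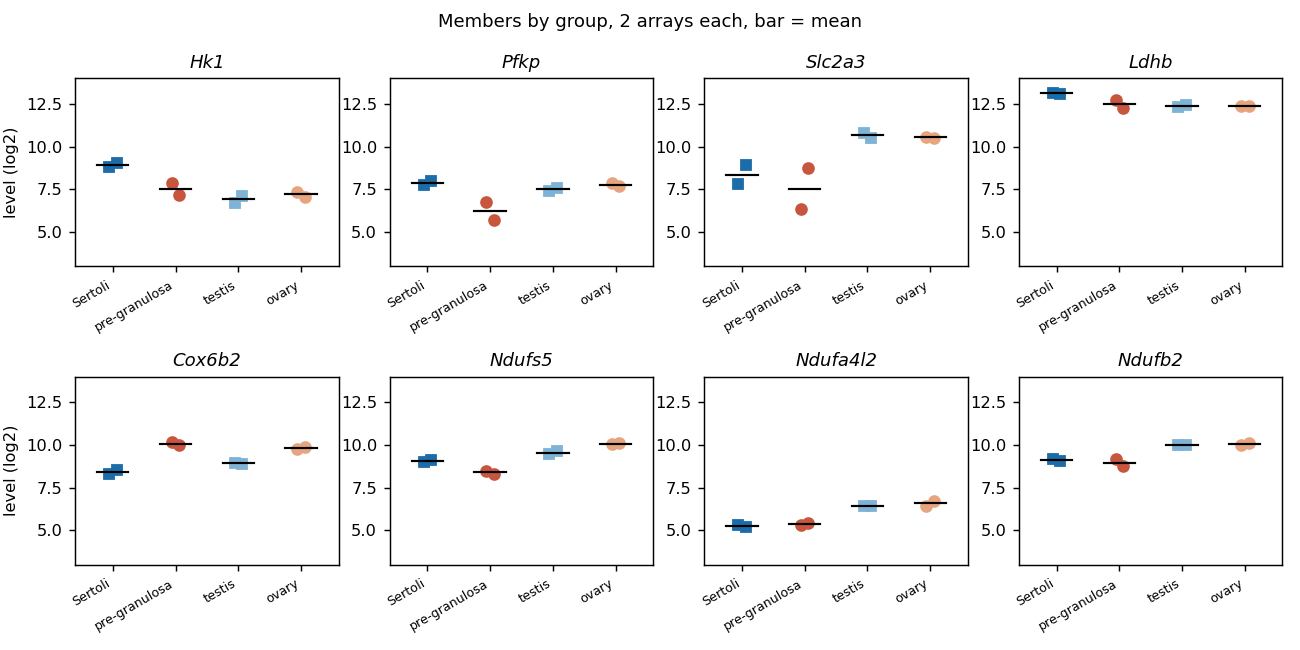
Log2 levels of 8 members on both arrays of Sertoli cells, pre-granulosa cells, testis and ovary, with bars at the group means. Hk1 is highest in Sertoli cells (8.83 and 9.02), the Cox6b2 points of both XX groups lie above those of both XY groups, and the Slc2a3, Ndufa4l2 and Ndufs5 points of the gonads lie above those of the sorted cells. Levels are as deposited, and with each array centred on its median Sertoli minus testis was -0.08 for Ndufs5.

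Among the other single-symbol probe sets of the members, 25 for glycolysis and 69 for the respiratory chain, 0 were called in Sertoli minus pre-granulosa or in testis minus ovary. In pre-granulosa minus ovary a second Pdk1 probe set was called lower, at -1.25 with a limma adjusted p of 0.00423, and so were probe sets of Cox5a, Cox7a2 and Ndufb6 and 2 of Ndufc2. In Sertoli minus testis, 2 Ndufa7 probe sets and 1 of Ndufc2 were called lower. The chosen probe sets of these genes did not pass in those comparisons.

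Complex IV holds subunits with isoforms that are known from muscle, lung, heart or testis. The isoforms Cox4i2, Cox8b and Cox7b2 stayed between 4.06 and 6.25 on all arrays, close to background, and Cox6a2 and Cox8c between 6.15 and 7.33. Their widely used counterparts were Cox4i1, at 11.52 and 11.60 in Sertoli cells, against 12.24 and 12.14 in testis, Cox6a1, at 11.65 and 11.42 in Sertoli cells, against 12.05 and 12.02 in testis, and Cox8a, at 9.54 and 9.51 in Sertoli cells, against 9.81 and 9.91 in testis. These levels are as deposited. With each array centred on its median, their Sertoli minus testis differences were -0.23, -0.10 and 0.06, with limma adjusted p of 0.326, 0.773 and 0.797. Cox7a1, the heart and muscle form, had 6.58 and 7.01 in Sertoli cells, against 7.41 and 6.79 in pre-granulosa cells, and 7.25 and 7.04 in testis, against 7.58 and 8.11 in ovary. Cox7a2 had 13.17 and 13.10 in Sertoli cells, against 12.98 and 13.14 in pre-granulosa cells, and 13.66 and 13.60 in testis, against 13.53 and 13.58 in ovary. Of these isoform pairs, Cox6b2 alone gave a call between Sertoli and pre-granulosa cells, and Cox7b matched no single-symbol probe set.

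Promoter sequences from RefSeq on GRCm38.p6, 250 bases before to 50 after each annotated start, were found for 16 glycolysis genes (26 promoters) and 51 respiratory chain genes (53 promoters). They were searched on both strands for ACGTG, the core that hypoxia-inducible factors bind, GCATGC, a part of the NRF1 site, and CCGGAAG, a site of ETS factors such as GABP; GCATGC reads the same on both strands and none of the 3 contains another. ACGTG was present in 46.2% of the glycolysis promoters and 24.5% of the respiratory chain promoters, against 19.6% of all 32851 promoters. CCGGAAG was present in 3.85% of the glycolysis promoters and 20.8% of the respiratory chain promoters, against 8.86% of all, and GCATGC in 11.5% and 11.3%, against 7.93% of all. The member promoters are also richer in G and C, with medians of 60.2% and 58.3%, against 52.7% of all. A match is a description of the letters and not of a bound site. The search took exact strings only, so a missing match does not show that no such site is present.

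The promoters of 3 called members are shown because Hk1 was the 1 glycolysis gene called and Cox6b2 and Ndufs5 had the smallest adjusted p among members in the comparisons that called them. Capitals mark ACGTG, which is found at positions 8 and 17 after the start of the first Hk1 promoter, and none of the 3 motifs is in the other sequences. They are Hk1 at chr10:62340372-62340671 and chr10:62379859-62380158, Cox6b2 at chr7:4753045-4753344 and Ndufs5 at chr4:123718137-123718436, all on the minus strand and written 5′ to 3′ along the gene.
Hk1 promoter 1: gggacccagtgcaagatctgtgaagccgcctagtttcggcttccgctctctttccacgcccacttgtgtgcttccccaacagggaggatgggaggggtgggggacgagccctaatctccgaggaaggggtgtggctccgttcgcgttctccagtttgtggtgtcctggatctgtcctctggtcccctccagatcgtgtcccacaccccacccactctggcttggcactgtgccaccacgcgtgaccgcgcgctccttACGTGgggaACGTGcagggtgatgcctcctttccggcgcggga
Hk1 promoter 2: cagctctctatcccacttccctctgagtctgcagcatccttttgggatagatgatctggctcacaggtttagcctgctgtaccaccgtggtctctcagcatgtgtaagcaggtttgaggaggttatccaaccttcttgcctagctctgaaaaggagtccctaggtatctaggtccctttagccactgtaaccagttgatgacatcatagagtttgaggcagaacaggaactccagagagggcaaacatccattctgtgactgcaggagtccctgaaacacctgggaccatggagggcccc
Cox6b2 promoter: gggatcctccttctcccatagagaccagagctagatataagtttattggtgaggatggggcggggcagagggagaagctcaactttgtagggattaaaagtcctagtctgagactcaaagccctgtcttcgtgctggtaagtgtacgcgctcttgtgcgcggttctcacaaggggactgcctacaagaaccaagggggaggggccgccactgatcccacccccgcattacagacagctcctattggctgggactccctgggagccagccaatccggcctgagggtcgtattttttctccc
Ndufs5 promoter: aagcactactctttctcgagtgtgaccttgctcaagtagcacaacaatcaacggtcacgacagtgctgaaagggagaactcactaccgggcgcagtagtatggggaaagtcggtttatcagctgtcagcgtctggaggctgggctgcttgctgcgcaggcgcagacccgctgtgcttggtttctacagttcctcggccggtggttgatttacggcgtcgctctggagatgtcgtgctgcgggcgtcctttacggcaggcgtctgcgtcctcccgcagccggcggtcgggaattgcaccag

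Genes that neighbour these pathways were read from lists of transporters, pyruvate dehydrogenase, the citric acid cycle, electron carriers and assembly factors, ATP synthase, the hypoxia response, mitochondrial regulators, glycogen and the pentose phosphate pathway. In Sertoli against pre-granulosa cells, 1 of 23 further glucose and lactate genes was called higher and 0 lower, where 1.62% of all genes were called higher and 1.05% lower. The same shares stand beside each list count for this comparison below. It was Slc2a4, the insulin-responsive transporter GLUT4, at 7.10 and 7.08 in Sertoli cells, against 5.69 and 5.67 in pre-granulosa cells (1.41 ± 0.13, limma adjusted p = 0.00392). Testis had 7.10 and 7.15 and ovary 7.12 and 7.20, so the pre-granulosa arrays stood apart from the other 6. Over all alternatives its adjusted p ranged from 0.00339 to 0.103.

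Of 32 electron carriers and assembly factors, 1 was called higher and 1 lower. Cycs, somatic cytochrome c, which carries electrons between complexes III and IV, had 12.37 and 12.26 in Sertoli cells, against 10.33 and 10.24 in pre-granulosa cells, and 12.20 and 12.33 in testis, against 11.83 and 11.68 in ovary. It was higher in Sertoli cells by 4.08-fold (2.03 ± 0.14, limma adjusted p = 0.00192), and testis minus ovary was 0.51 ± 0.14 with an adjusted p of 0.297. The pre-granulosa arrays were the lowest, and pre-granulosa cells were lower than ovary (-1.07 ± 0.14 relative to the median gene, adjusted p = 0.00244). Over all alternatives the adjusted p for Sertoli minus pre-granulosa ranged from 0.00147 to 0.0752. Cox19, a copper-handling assembly factor of complex IV, had 6.58 and 6.91 in Sertoli cells, against 8.33 and 8.09 in pre-granulosa cells (-1.46 ± 0.18, adjusted p = 0.00953). The Cox19 call was lost in 13 of 19 alternatives, with adjusted p from 0.00654 to 0.138.

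Pdp2, a phosphatase that reactivates pyruvate dehydrogenase, was the 1 of 12 genes of that group that was called, at 5.12 and 5.10 in Sertoli cells, against 7.13 and 7.24 in pre-granulosa cells (-2.07 ± 0.24, limma adjusted p = 0.00750). Pygl, the liver glycogen phosphorylase, was the 1 of 11 glycogen genes, at 7.22 and 6.78 in Sertoli cells, against 9.01 and 8.64 in pre-granulosa cells (-1.82 ± 0.21, adjusted p = 0.00763). Each of these 2 calls was lost in 11 of 19 alternatives, with adjusted p up to 0.0722 for Pdp2 and 0.132 for Pygl. None of 13 citric acid cycle, 15 ATP synthase, 17 regulator and 7 pentose phosphate genes was called, where 2.67% of all genes were. Citrate synthase, Cs, had 11.37 and 11.29 in Sertoli cells, inside 11.84 and 11.27 in pre-granulosa cells, and Atp5b had 12.09 and 11.98 in Sertoli cells, above 11.57 and 11.01 in pre-granulosa cells.

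Of 19 hypoxia-response genes, 0 were called higher in Sertoli cells than in pre-granulosa cells and 2 lower, beside 1.62% and 1.05% of all genes. Adm, the secreted peptide adrenomedullin, had 9.83 and 9.66 in Sertoli cells, against 12.80 and 12.98 in pre-granulosa cells (-3.15 ± 0.26, limma adjusted p = 0.00294), and 8.81 and 9.56 in testis, against 12.31 and 12.52 in ovary (-3.23 ± 0.26, adjusted p = 0.00842). Kdm3a, a histone demethylase, averaged 10.08 ± 0.10 in Sertoli cells, against 11.73 ± 0.29 in pre-granulosa cells (SD, n = 2 each; difference -1.65 ± 0.18, adjusted p = 0.00674), and 10.26 and 10.28 in testis, against 11.67 and 11.80 in ovary. For both genes all 4 XY arrays lay below all 4 XX arrays. Over all alternatives the adjusted p for Sertoli minus pre-granulosa ranged from 0.00178 to 0.0614 for Adm and from 0.00457 to 0.125 for Kdm3a. Hif1a, the oxygen-regulated subunit of the factor itself, had 11.89 and 11.87 in Sertoli cells, against 11.21 and 11.87 in pre-granulosa cells, and Vegfa had 7.76 and 7.87, against 8.57 and 8.91. Both missed the test.

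Against the gonads, several neighbours were lower in the sorted cells of both sexes. Pdha1, the somatic catalytic subunit of pyruvate dehydrogenase, had 7.79 and 8.28 in Sertoli cells, against 11.01 and 10.97 in testis, and 8.47 and 8.86 in pre-granulosa cells, against 10.92 and 10.81 in ovary. Relative to the median gene it was lower by 6.32-fold and 3.50-fold (limma adjusted p = 0.00112 and 0.00249). Slc16a1, the lactate and pyruvate transporter MCT1, had 8.85 and 8.36 in Sertoli cells, against 10.90 and 10.96 in testis, and 8.32 and 9.16 in pre-granulosa cells, against 10.70 and 11.02 in ovary (adjusted p = 0.00530 and 0.00730). Those Slc16a1 calls were lost with each array centred on its median, with adjusted p of 0.0111 and 0.0158.

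Cyct, the cytochrome c isoform known from male germ cells, had 4.60 and 4.79 in Sertoli cells, against 9.25 and 8.59 in testis, and 5.07 and 4.51 in pre-granulosa cells, against 9.73 and 9.92 in ovary. The sorted cells were at or close to background, and the gonads of both sexes were well above it (limma adjusted p = 9.32e-04 and 7.49e-04). The other 6 germ-line isoforms of the list were not called in these comparisons. Slc16a7, the transporter MCT2, was at or under background in both sorted groups, so relative to the median gene it was lower by at least 1.81 on the log2 scale in Sertoli cells than in testis, where it had 7.03 and 6.75, and by at least 0.36 in pre-granulosa cells than in ovary, where it had 5.35 and 5.74. Etfa, which feeds electrons from fatty acid oxidation into the chain, was lower in Sertoli cells than in testis (-1.61 ± 0.21, adjusted p = 0.00300) and lower in pre-granulosa cells than in ovary (-2.06 ± 0.21, adjusted p = 0.00178).

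Further calls were scattered over the lists and were on the lower side in the sorted cells. In Sertoli cells against testis they included Bpgm, which makes 2,3-bisphosphoglycerate in red cells, at -3.09 ± 0.51, the hypoxia-response genes Egln3 at -2.16 ± 0.27, Epas1 at -2.08 ± 0.32 and Vegfa at -0.93 ± 0.17, and the ATP synthase gene Atp5g1 at -0.91 ± 0.16. In pre-granulosa cells against ovary they included the assembly factors Ndufaf1 at -1.42 ± 0.25 and Cox11 at -1.38 ± 0.19, the regulators Mycl at -1.46 ± 0.25, Pprc1 at -1.45 ± 0.22 and Gabpa at -1.42 ± 0.19, and the ATP synthase gene Atp5e at -0.87 ± 0.15. Each had a limma adjusted p of 0.01 or less, and over all genes 8.71% and 9.12% were called lower in these comparisons, or 4.40% and 4.11% with each array centred on its median. Of 19 alternatives, 12 ended the Vegfa call and 12 the Atp5g1 call in Sertoli minus testis, and 10 each the Mycl and Ndufaf1 calls in pre-granulosa minus ovary.

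Some genes were to be named whatever their values. Ppargc1a, a coactivator that drives mitochondrial gene expression, had 8.42 and 7.88 in Sertoli cells, against 5.95 and 6.91 in pre-granulosa cells (1.72 ± 0.35, limma adjusted p = 0.0457), and 9.26 and 9.49 in testis, against 7.87 and 8.08 in ovary (1.40 ± 0.35, adjusted p = 0.224). Both XY groups lay above their XX groups, and neither difference passed. Tfam, the mitochondrial transcription factor, had 9.45 and 10.22 in Sertoli cells, against 9.41 and 9.85 in pre-granulosa cells. Slc16a3, the lactate exporter MCT4, had 8.90 and 9.12 in Sertoli cells, against 9.15 and 7.46 in pre-granulosa cells. The groups overlapped for both of these. Pfkfb3 and Pfkfb4, which make the activator of phosphofructokinase, differed by -0.04 ± 0.39 and -0.83 ± 0.35 between Sertoli and pre-granulosa cells, with adjusted p of 0.983 and 0.273. Myc stayed near background at 3.81 to 4.81, and Mycn had 5.52 and 9.66 on the pre-granulosa arrays, a spread that leaves its difference from Sertoli cells, 2.19 ± 1.22, uninterpretable.

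**Figure D5:**
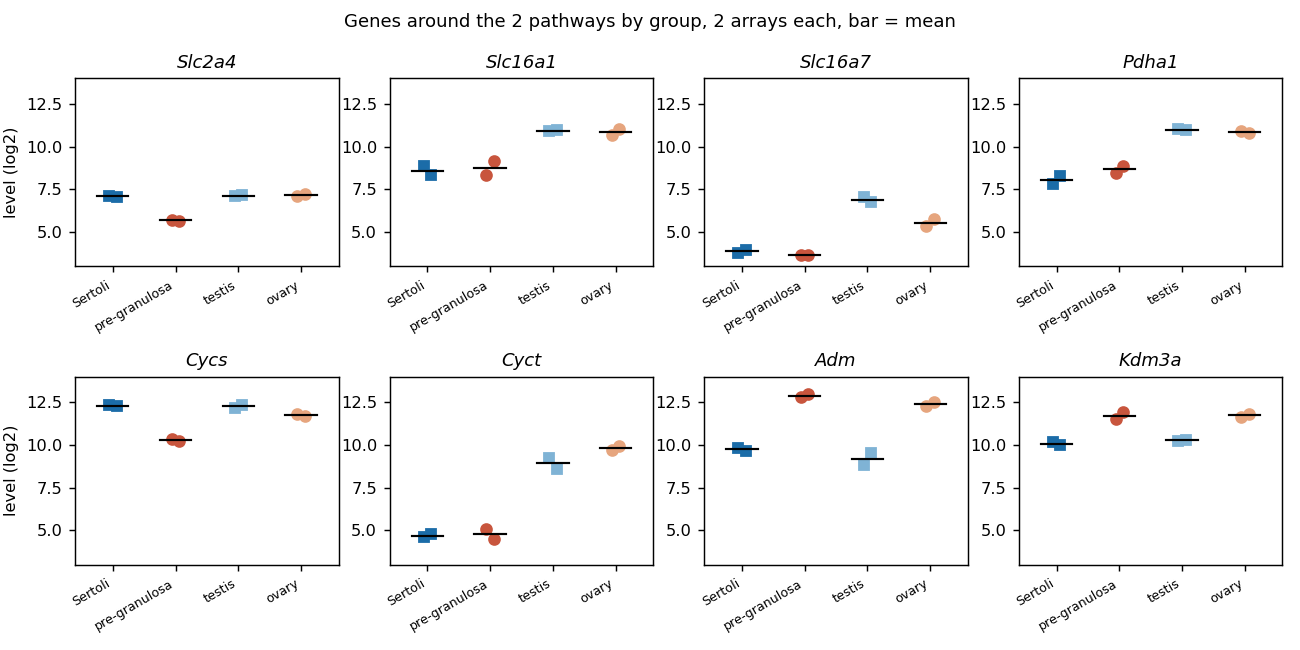
Log2 levels of 8 neighbouring genes on both arrays of Sertoli cells, pre-granulosa cells, testis and ovary, with bars at the group means. Slc2a4 and Cycs are lowest in pre-granulosa cells, Pdha1, Slc16a1, Slc16a7 and Cyct are lower in both sorted groups than in the gonads, and the Adm and Kdm3a points of both XX groups lie above those of both XY groups.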

How the data were processed

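The deposited table gives 1 log2 value per probe set and array, and RMA, with no version, is named for these log2 values per the submitters' processing notes. RNA, about 20 ng per sample, was turned into labelled cDNA and read on Affymetrix mouse genome arrays, per the labels' protocols. Sorted by size, the values of the sorted-cell arrays differed at any rank by 0.18 or less, and those of the gonad arrays by 0.15 or less, whereas the medians of these sets lay 0.38 apart; by this each set appears to have been normalized separately, a step no label records.

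Of 45101 probe sets, 64 were array controls and 45037 were tested; 34945 had 1 gene symbol in GEO's platform annotation, 932 several and 9160 none. Symbols were checked through gene identifiers against RefSeq for 34741 probe sets, and 0 changed. Group means were fitted with limma 3.58.1 in R 4.3.3 (lmFit, eBayes, no covariate), with two-sided p-values adjusted over the 45037 probe sets and calls at 0.01. This follows the false discovery rate of 1% in the series text, which names R/maanova for the authors' own test. The code was tested on simulated data. Where sorted cells were set against gonads, the all-gene median was subtracted from each printed difference but not from the tested one. Replicate numbers did not pair samples: deviations of same-numbered arrays correlated between -0.16 and 0.05.

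Named were all glycolysis genes, every called member, the 3 highest and 3 lowest respiratory chain differences per comparison, 1 core subunit per complex, complex IV isoforms, up to 4 called genes per neighbouring list and comparison, and a few fixed genes. Gapdh, one of these, had no single-symbol probe set outside the array controls. The members and lists were chosen with earlier results of these data known. Alternatives changed the normalization, the probe set filter, the variance model, the arrays in the fit, the threshold and the probe set per gene.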

Additional observations from a re-analysis of the deposited data

Results flagged for a closer look

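For 7 members, on their chosen probe sets, both Sertoli arrays lay above both pre-granulosa arrays while both testis arrays lay below both ovary arrays (8.64% of the 81, beside 4.26% of all genes). On the other Slc2a1 probe sets the gonad arrays overlapped. The sorted-cell difference minus the gonad difference was 1.92 ± 0.48 (SE, log2) for Pfkp, from 1.64 in sorted cells and -0.28 in gonads, with a limma adjusted p of 0.200. It was 1.22 ± 0.20 for Ndufs5, from 0.67 and -0.55, with an adjusted p of 0.0874. It was 0.96 ± 0.42 for Pkm (adjusted p = 0.467), 0.87 ± 0.36 for Ndufa13 (0.442), 0.75 ± 0.23 for Aldoa (0.293), 0.49 ± 0.20 for Slc2a1 (0.417) and 0.33 ± 0.20 for Cox5b (0.633). None of these 7 differences passed the test at 0.01, and no group had enough arrays to look for single outlying samples.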

How the results depend on the processing

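Counts of called members were small and moved with most settings. Against main counts of 1 respiratory chain gene in Sertoli minus testis and 3 in pre-granulosa minus ovary, quantile normalization over all arrays gave 0 and 1, centring each array on its median 0 and 1, and one weight per group 5 and 1. Calls over all genes moved too. They were 9.70% and 9.62% in the main fit, then 5.65% and 4.63%, 6.87% and 5.40%, and 17.1% and 5.44% in the same order. The mean of all probe sets of a gene gave 2 and 5, leaving out probe sets ending in x_at, s_at or a_at 2 and 6, and fitting the 4 arrays of the comparison alone 2 and 0. Quantile normalization within each set gave 2 in Sertoli minus testis. The main count of 1 glycolysis gene in that comparison became 3 with centred arrays and 0 without those probe sets, since both Hk1 probe sets are among them. The 1 respiratory chain gene in Sertoli minus pre-granulosa became 0 with one weight per group, where 0.956% of all genes were called, and with the 4 arrays alone. At an adjusted p of 0.05 in place of 0.01, 14 and 21 respiratory chain genes were called in Sertoli minus testis and pre-granulosa minus ovary, where 26.3% and 27.4% of all genes were, and 2, 3 and 3 glycolysis genes in Sertoli minus pre-granulosa, Sertoli minus testis and pre-granulosa minus ovary. With the replicate number as a block, the count was 0 for glycolysis and 0 for the respiratory chain in Sertoli minus testis, 0 for the respiratory chain in Sertoli minus pre-granulosa and 1 in pre-granulosa minus ovary. Over all genes 5.31%, 1.15% and 5.07% were called in these 3 comparisons, in that order. The numbers do not pair the samples, and the block takes up 1 degree of freedom. Ndufb2 in pre-granulosa minus ovary turned to 0.36 (limma adjusted p = 0.668) and Atp5c1 to 0.04 (0.948) without x_at, s_at and a_at probe sets, which changes the probe set read.

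With 1 array left out, 1 group holds a single array and fewer degrees of freedom are left. Counts of called members then moved broadly with those over all genes and are not given. The gap between the sets was recomputed on the arrays left. It ranged from 0.01 to 0.25 in Sertoli minus pre-granulosa and from -0.16 to -0.03 in testis minus ovary. For Sertoli minus testis it ranged from 0.38 to 0.57, and for pre-granulosa minus ovary from 0.12 to 0.29. In all normalizations and probe set choices tried, these gaps kept their sign. With quantile normalization over all arrays they were 0.08, -0.09, 0.40 and 0.22 in the same order. Counts in testis minus ovary and of the difference between the XY minus XX comparisons were 0 under every alternative run. Over all alternatives, calls of members held in 55 cases and fell short of the threshold in 57, and 60 uncalled values passed it. Where not shown otherwise, the cause was not tested. Differences in this part keep the median of all genes. With 2 arrays a group, a missed threshold does not show that levels were equal.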
